A study of Mus musculus with 19 samples.

Results

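Spleens carrying tumours from mice in which Aid-Cre switches on HGAL were compared with spleens of wild-type mice. The comparison used 7 of the 19 arrays of the study, 4 titled as tumour-bearing splenic cells of Rosa26-HGAL+Aid-Cre mice and 3 as wild type, and the group of each array was taken from its title. The other arrays held 5 Rosa26-HGAL+Mb1-Cre tumour spleens, 4 Rosa26-HGAL+Sca1-Cre tumour spleens and 3 Rosa26-HGAL+Sca1-Cre spleens taken before tumours. Total RNA of whole spleen was hybridised to Affymetrix arrays, with 1 array for each biological replicate, and values are on the log2 scale. The labels give the genotype with no further allele, treatment, strain or age, and they state that the animals lived in a conventional facility with exposure to common pathogens. The groups also differed in Y-linked signal, which was present in 1 of 4 Aid-Cre tumour arrays and in 3 of 3 wild-type arrays.

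HGAL is the human name of the gene that mice call Gcsam, a B cell adaptor that germinal centre cells use to tune Syk and RhoA signalling downstream of the B cell receptor. Transgenes placed at Rosa26 are commonly kept silent until Cre acts. Aid-Cre acts in B cells of the germinal centre, a later stage of B cell life than that of Mb1-Cre, which acts from early B cell precursors, or Sca1-Cre, which acts in stem and progenitor cells. The arrays read whole spleen, in which B cells sit beside T cells, macrophages, erythroid precursors and granulocytes. For every gene list below, fewer cells of a type and less RNA per cell cannot be told apart.

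Few genes separated the Aid-Cre tumours from wild type once the spread between spleens was taken into account. A linear model over all 19 arrays (limma, with each gene's residual spread shared by the 5 groups, Benjamini-Hochberg adjustment over 22180 genes) called 4 genes at an adjusted p under 0.05, which is 0.0180% of those tested. The 1 gene that rose (0.00451%) was Vpreb2, and the 3 that fell (0.0135%) were Prelid2, Mir669a-3 and Mir466h. All 4 calls were lost with a covariate for Y-linked signal, where adjusted p ran from 0.0637 for Prelid2 to 0.385 for Vpreb2 and Mir466h. They were also lost when only the 7 compared arrays were fitted, where it ran from 0.0514 for Mir669a-3 and Mir466h to 0.344 for Vpreb2. At an unadjusted p under 0.05 the same fit held 1842 genes (8.30%), of which 877 (3.95% of those tested) were higher and 965 (4.35%) lower; the higher share was 47.6%, and 36.4% when each array was centred on its median. The median SD of a gene was 0.18 over the Aid-Cre arrays and 0.14 over the wild-type arrays.

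Vpreb2 encodes a surrogate light chain that pairs with the immunoglobulin heavy chain in the pre-B cell receptor. Its log2 values were 6.39, 6.59, 6.28 and 6.48 in Aid-Cre tumours 1 to 4 and 5.80, 5.56 and 5.77 in the wild-type spleens, so every tumour lay above every control. The means were 6.43 ± 0.14 (SD, n = 4) and 5.71 ± 0.13 (SD, n = 3), a difference of 0.73 ± 0.11 (SE), or 1.66-fold (limma, adjusted p = 0.0372). Vpreb2 was above the wild-type mean in the other HGAL groups too, at 6.135 (Mb1-Cre tumours), 6.07 (Sca1-Cre tumours) and 6.31 (Sca1-Cre before tumours). Its partners in the same receptor gave other values. Igll1, the partner of the VpreB proteins, differed by 0.24 ± 0.12 (limma, adjusted p = 0.62) and was dim on average, and Vpreb1 was dim on all 7 arrays, at 4.70, 4.65, 4.37 and 4.53 against 4.59, 4.42 and 4.59. Dim here means a level under 4.90, the lower part of the range on these arrays. Of the 9 genes measured among the surrogate light chain and recombination genes, Vpreb2 alone passed the test. The call ended without any 1 of the 7 arrays, where the adjusted p ran from 0.0516 without Aid-Cre tumour 3 to 0.366 without wild type 2, while the difference stayed between 0.65 and 0.78.

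Prelid2 belongs to the PRELI family, whose members carry lipids between the mitochondrial membranes. It read 6.21, 5.69, 5.74 and 5.92 in the Aid-Cre tumours against 7.36, 7.07 and 7.44 in wild type, with a gap between the groups. The means were 5.89 ± 0.24 (SD, n = 4) and 7.29 ± 0.20 (SD, n = 3). The difference of -1.40 ± 0.18 (SE) is 2.64-fold lower in the tumours (limma, adjusted p = 0.0169). Prelid2 was below the wild-type mean in the other HGAL groups too, at 6.50 (Mb1-Cre tumours), 6.18 (Sca1-Cre tumours) and 6.03 (Sca1-Cre before tumours). The other 4 measured genes of PRELI proteins and their partner Triap1 were not called. The call held without Aid-Cre tumour 1, Aid-Cre tumour 4 or wild type 2, and was lost without Aid-Cre tumour 2 (adjusted p = 0.0732), Aid-Cre tumour 3 (0.0516), wild type 1 (0.0742) or wild type 3 (0.0654).

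Mir669a-3 and Mir466h lie in the repeat microRNA cluster within an intron of Sfmbt2, whose members have near-identical copies, so a probe set may not tell the copies apart. Mir669a-3 read 5.27, 4.93, 4.73 and 4.44 in the Aid-Cre tumours and 7.10, 7.43 and 7.86 in wild type. It fell by 2.62 on the log2 scale ± 0.37 (SE; limma, adjusted p = 0.0206), to a tumour mean of 4.84 ± 0.35 (SD, n = 4). That mean and 2 of the 4 tumours were dim, and with these raised to the dim level Mir669a-3 was at least 5.50-fold lower. Mir466h read 6.44, 5.95, 5.84 and 5.94 against 7.81, 7.77 and 7.72, and fell by 1.72 on the log2 scale ± 0.26 (SE), or 3.30-fold (limma, adjusted p = 0.0372). No Aid-Cre tumour array reached the wild-type range for either gene. The other HGAL groups also had means below wild type. For Mir669a-3 these were 5.85 (Mb1-Cre tumours), 4.85 (Sca1-Cre tumours, dim) and 5.09 (Sca1-Cre before tumours), and for Mir466h 6.64, 5.64 and 5.76. Of the 10 measured microRNA genes of the cluster, 4 lay below every wild-type array in every tumour array, where 3.45% of all genes did, and these also included Mir669c, at 4.24 to 4.77 in tumours that were all dim against 4.91 to 5.09, and Mir466g, which was dim in both groups at 2.71 to 2.92 against 3.23 to 3.41. Mir467c of the same cluster was at 9.20, 8.75, 9.20 and 9.94 in the tumours against 8.61, 8.67 and 9.04, so the groups overlapped. The host gene Sfmbt2, chosen after its values were seen, was dim in both groups, with means of 4.24 ± 0.14 (SD, n = 4) and 4.20 ± 0.14 (SD, n = 3). Each of the 2 calls survived only the removal of Aid-Cre tumour 1 among the 7 single removals, with adjusted p up to 0.176 for Mir669a-3 and 0.338 for Mir466h, both without wild type 2.

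**Figure D1:**
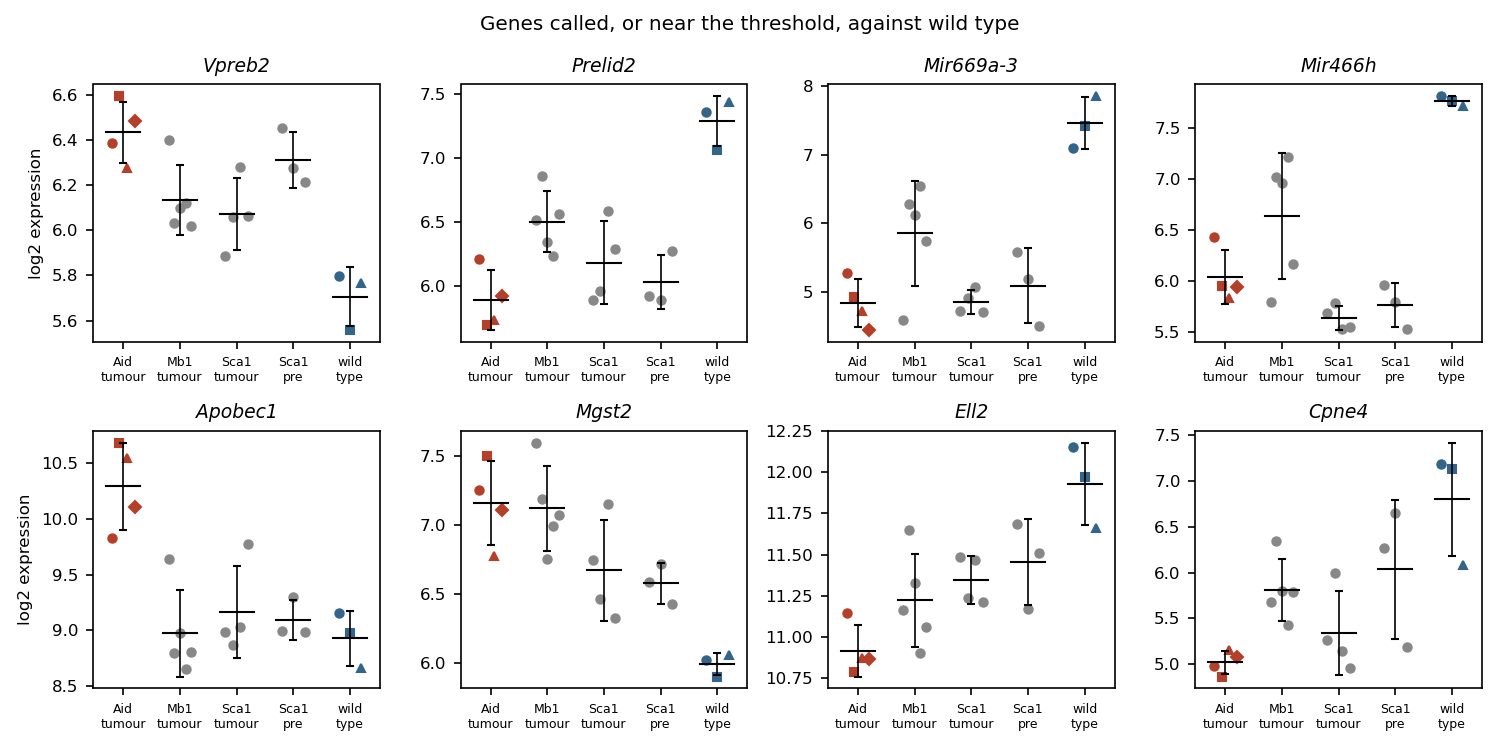
Log2 expression of 8 genes on every array, by group: Aid-Cre tumour (n = 4), Mb1-Cre tumour (n = 5), Sca1-Cre tumour (n = 4), Sca1-Cre spleen before tumours (n = 3) and wild type (n = 3); horizontal bars are means and error bars SD, and axes do not start at 0. Vpreb2, Prelid2, Mir669a-3 and Mir466h were called against wild type, and Apobec1, Mgst2, Ell2 and Cpne4 did not overlap but missed the threshold.

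Several genes missed the threshold with no overlap between the groups. Apobec1, a cytidine deaminase that edits the messenger RNA of apolipoprotein B, read 9.83, 10.68, 10.55 and 10.11 in the Aid-Cre tumours and 9.15, 8.97 and 8.66 in wild type. Its difference was 1.36 ± 0.25 (limma, adjusted p = 0.107). Mgst2, a microsomal glutathione transferase that can make leukotriene C4, read 7.25, 7.50, 6.77 and 7.11 against 6.02, 5.90 and 6.06, with a difference of 1.17 ± 0.20 (limma, adjusted p = 0.0809). Ell2, a transcription elongation factor that favours the secreted form of immunoglobulin messenger RNA in plasma cells, read 11.15, 10.79, 10.87 and 10.87 against 12.16, 11.97 and 11.66, with a difference of -1.01 ± 0.17 (limma, adjusted p = 0.0650). Of the 16 measured plasma cell genes, Ell2 among them, 12 had a lower mean, 0 were called and the median was -0.14, or -0.05 without Aid-Cre tumour 2. Jchain, the joining chain of secreted antibody, differed by -0.23 ± 0.25, with overlap, and by -0.07 without that tumour.

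Among the further genes above the wild-type range in all 4 tumours were Zfp992, a zinc finger gene, at a difference of 1.10 ± 0.22, Rab5a, a GTPase of early endosomes, at 0.72 ± 0.15, and Ctrcos at 0.69 ± 0.12. The largest differences without overlap also included Vwa5a at 1.40 ± 0.43, the GTPase activator Rgs1 at 1.22 ± 0.58, the nuclear receptor Nr4a2 at 1.18 ± 0.62 and the histone variant H2az1 at 1.05 ± 0.29. Below the wild-type range in all 4 tumours were the copine Cpne4 at -1.78 ± 0.33, Pex10, a peroxisome assembly gene, at -0.40 ± 0.08, the STAT inhibitor Pias3 at -0.36 ± 0.08, the RNase P subunit Rpp21 at -0.57 ± 0.13 and the ubiquitin ligase gene Dtx3 at -0.59 ± 0.13. Josd2, a deubiquitinase, differed by -1.41 ± 0.54, Cep290, a centrosome and cilium gene, by -1.47 ± 0.36, and Jhy by -1.57 ± 0.44. None of these 15 passed the test, and their limma adjusted p ran from 0.0809 for Ctrcos to 0.645 for Nr4a2. In all, 832 genes (3.75%) lay above every wild-type array in every tumour array, and 765 (3.45%) lay below.

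The driver and its signalling partners were not called, and only Rhoa lay outside the wild-type range in all 4 tumours. Gcsam read 5.29, 5.19, 6.04 and 5.77 in the Aid-Cre tumours and 6.02, 5.92 and 5.36 in wild type, and the groups overlapped. The difference was -0.19 ± 0.76 (SE; limma, adjusted p = 0.974). This SE shares the spread of all 5 groups, and Sca1-Cre tumours had an SD of 2.23, with tumour 4 at 10.41. The SD was 0.40 in the Aid-Cre tumours and 0.35 in wild type. With only the 7 compared arrays fitted, the limma adjusted p was 0.915. The labels do not say whether this probe set, assigned to the mouse gene, also reads the human HGAL transcript. The other 8 measured driver and adaptor genes were not called either. Rhoa, the small GTPase downstream of HGAL, was above the wild-type range in all 4 tumours, where 3.75% of all genes were. Its difference was 0.22 ± 0.09 (limma, adjusted p = 0.56), from a mean of 11.125 against 10.91. Rhoa was above the wild-type mean in the other HGAL groups too, at 11.11 (Mb1-Cre tumours), 11.225 (Sca1-Cre tumours) and 11.16 (Sca1-Cre before tumours). Syk differed by -0.32 ± 0.41 and the B cell linker Blnk by -0.95 ± 0.58. Without Aid-Cre tumour 2 these were 0.08 for Syk and -0.27 for Blnk. Lyn had no probe set with a single gene symbol and was not analysed here.

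The B cell genes separated the 4 tumours from each other more than from wild type. Cd79a, a signalling chain of the B cell receptor, read 11.02, 8.97, 12.34 and 12.11 in Aid-Cre tumours 1 to 4 and 12.11, 12.38 and 12.03 in wild type. Ms4a1, which encodes CD20, read 10.15, 8.31, 11.67 and 11.38 against 11.42, 11.64 and 11.16. For both genes tumour 2 was lowest, tumour 1 next, and tumours 3 and 4 lay in or near the wild-type range. Cr2, the complement receptor of follicular and marginal zone B cells, ran from 4.78 in tumour 2 to 11.47 in tumour 3, against 11.01 to 11.43 in wild type, and its SD of 3.15 was among the 10 largest over the Aid-Cre arrays.

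Over the 20 measured B cell identity genes, 19 had a lower mean in the tumours and 0 were called, where 48.6% of all genes had a lower mean. The median difference was -0.97, against 0.01 over all genes, and it was -0.29 without tumour 2. The mean of the list stood at -1.12, -3.06, 0.19 and 0.04 from the wild-type mean in tumours 1 to 4. The smallest p of the list belonged to Ly6d, at -1.50 ± 0.70 (limma, adjusted p = 0.60), followed by Cxcr5, the follicle homing receptor, at -1.10 ± 0.57, or -0.45 without tumour 2. The MHC class II presentation genes followed the same order, with list means of -0.85, -2.57, 0.21 and 0.08. All 9 of them had a lower tumour mean and 0 were called, with a median of -0.71 that was -0.12 without tumour 2. H2-Oa, a subunit of the peptide-loading modulator, read 7.99, 6.27, 9.67 and 9.44 against 9.77, 9.66 and 9.32.

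Marginal zone genes were lower on average in 9 of 10 cases with 0 called, and 2 of the 10 lay below every wild-type array in all 4 tumours, where 3.45% of all genes did. These were Mzb1, a chaperone of antibody assembly, at 8.55, 7.07, 8.84 and 8.53 against 9.12, 8.89 and 9.16, and S1pr3, a sphingosine phosphate receptor, at 6.56, 5.06, 7.82 and 7.89 against 7.90, 8.11 and 8.82. Their differences were -0.81 ± 0.31 and -1.45 ± 0.74 (limma, adjusted p = 0.50 and 0.63), and without tumour 2 they were -0.42 and -0.85. The 14 measured germinal centre B cell genes divided into 6 with a higher and 8 with a lower mean, 0 were called, and the median was -0.04, or 0.02 without tumour 2. Bcl6, the master repressor of the germinal centre state, read 7.92, 7.64, 8.36 and 8.26 against 8.26, 8.40 and 8.10, so the groups overlapped.

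T cell genes ran in the same order as the B cell genes. Cd3e, a signalling chain of the T cell receptor, read 8.83, 7.98, 10.22 and 10.25 in tumours 1 to 4 against 10.24, 10.53 and 9.94. The mean difference was negative for all 15 measured T cell genes and 0 were called. The median was -0.54, and -0.07 without tumour 2. The NF-kB subunits and feedback genes gave a lower mean for 10 of 13 with 0 called, and a median of -0.40 that was -0.13 without tumour 2. Bcl3, a nuclear IkB protein, read 7.50, 7.28, 8.08 and 7.61 against 8.33, 8.20 and 7.88, and differed by -0.52 ± 0.16 (limma, adjusted p = 0.40). Of the 15 helper and checkpoint genes 7 had a higher and 8 a lower mean, with a median of -0.08, and 1 lay above every wild-type array in all 4 tumours, where 3.75% of all genes did. This was Ctla4, an inhibitory receptor, at 0.68 ± 0.41. Of the 16 NK and cytotoxic genes 9 had a higher and 7 a lower mean, with a median of 0.05, and 3 lay above every wild-type array. These were Klrb1c, which encodes an NK cell receptor, at 0.81 ± 0.25, the activating receptor gene Klrk1 at 0.57 ± 0.38, and Fasl, the ligand of the death receptor Fas, at 0.52 ± 0.55. Other markers of the list overlapped with wild type. Ncr1, with a higher mean, read 7.71, 6.65, 8.39 and 7.91 against 7.32, 7.75 and 6.33. Prf1, with a lower mean, read 6.97, 6.64, 7.44 and 7.33 against 7.52, 7.355 and 7.23. Without tumour 2 the medians of both lists changed sign, to 0.04 and -0.01. None of these was called.

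Neutrophil, erythroid and cell division genes took the opposite order. The 19 neutrophil and granulocyte precursor genes had list means of 1.69, 2.32, -1.70 and -1.63 in tumours 1 to 4 and of -0.92, 0.04 and 0.88 in wild type, so that 2 tumours lay above all controls and 2 below all of them. The median over the list was 0.07, and it moved between -0.65 without tumour 2 and 0.78 when another array was left out. Camp, the cathelicidin of specific granules, read 10.83, 10.92, 5.37 and 6.16 against 6.54, 8.74 and 9.77, and Elane, the elastase of granulocyte precursors, read 8.41, 10.29, 5.87 and 5.85 against 6.16, 7.53 and 8.90. Of the 10 genes with the largest SD over the Aid-Cre arrays, 5 are on this list, namely Mmp8, Camp, Retnlg, Chil3 and Ltf.

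Erythroid and haem synthesis genes had list means of 0.99, 1.25, -1.81 and -0.74 in tumours 1 to 4. Mitosis genes had 1.00, 1.33, -1.49 and -0.84, and DNA replication genes 0.64, 0.86, -0.66 and -0.66. The wild-type means of these lists lay between -0.44 and 0.38. Mki67, the proliferation antigen, read 12.13, 12.21, 9.64 and 10.65 against 11.41, 11.06 and 11.54, and Epb42, a red cell membrane protein, read 10.96, 10.87, 8.05 and 9.30 against 9.81, 9.38 and 10.21. Tumours 1 and 2 each had 21 of 21 mitosis genes and 21 of 21 erythroid genes above the wild-type range. Of all genes, 27.2% and 34.5% lay above it in these 2 tumours. Tumours 3 and 4 each had 21 of 21 mitosis genes below the range, and 21 and 19 of the 21 erythroid genes. Of all genes, 26.7% and 27.5% lay below it there. None of the 21 erythroid, 21 mitosis and 23 replication genes was called, and their medians of -0.06, -0.01 and 0.07 stood beside 0.01 over all genes. These medians average over tumours with opposite list means, and when single arrays were left out they ran from -0.465 to 0.525, from -0.439 to 0.501 and from -0.197 to 0.297, with the lowest value of each without tumour 2.

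**Figure D2:**
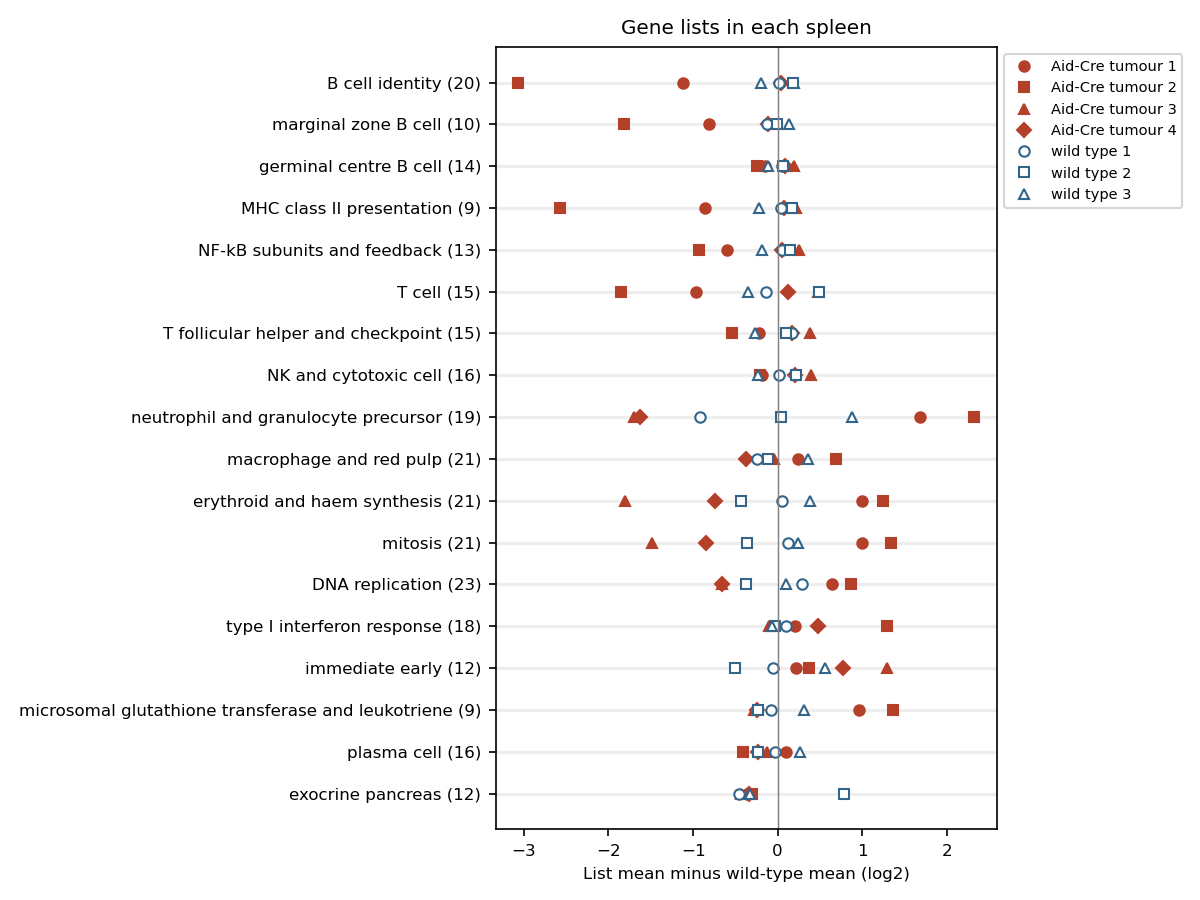
Mean of each gene list on each array minus its mean over the wild-type arrays, in log2 units, with the number of measured genes in brackets; filled symbols are the 4 Aid-Cre tumours and open symbols the 3 wild-type spleens. Lymphocyte lists reach -3.06 in tumour 2, whereas neutrophil, erythroid and mitosis lists are above wild type in tumours 1 and 2 and below it in tumours 3 and 4.

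**Figure D3:**
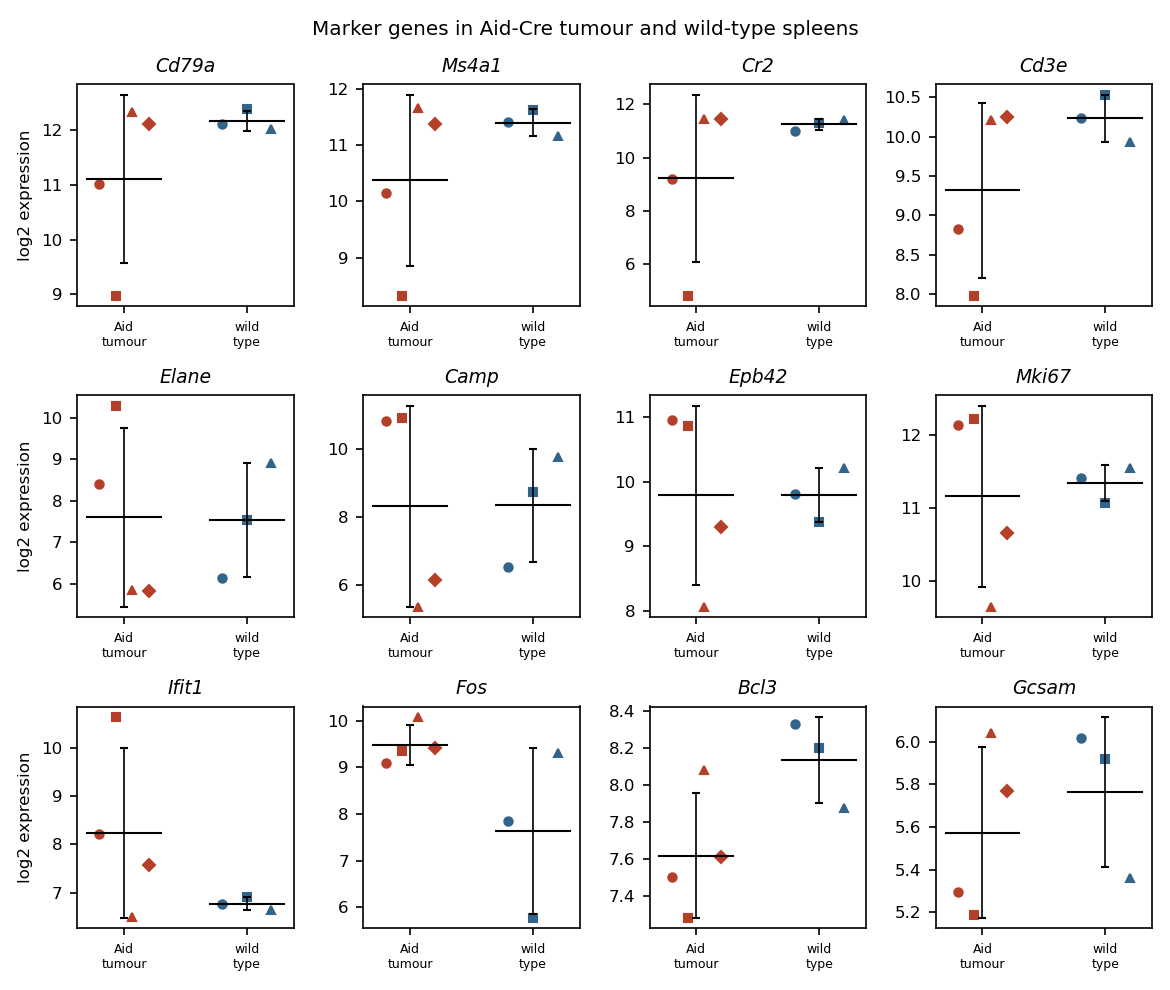
Log2 expression of 12 marker genes in the Aid-Cre tumours (n = 4) and wild-type spleens (n = 3); each symbol shape is 1 replicate number within its group, bars are means and error bars SD, and axes do not start at 0. Cd79a falls to 8.97 in tumour 2, while Camp spans 5.37 to 10.92 among the 4 tumours.

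The 4 tumour spleens were unlike each other in their mix of transcripts. Across all genes, 27.2%, 34.5%, 27.5% and 29.3% lay above the wild-type range in tumours 1 to 4, and 30.8%, 30.7%, 26.7% and 27.5% lay below it. The Pearson correlation across genes, which are not independent replicates, was 0.982 between tumours 1 and 2, 0.989 between tumours 3 and 4, and lowest, at 0.929, between tumours 2 and 3. Wild-type pairs had 0.986 to 0.991. Exocrine pancreas genes stood apart in wild type 2, where the list mean was 0.79 against -0.46 to -0.31 on the other 6 arrays. Without wild type 2 the limma fit called 1 gene, Prelid2, and without Aid-Cre tumour 2 or 3 it called 0.

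Immediate early genes, which respond within minutes to stimulation, had a higher mean for 11 of 12, where 51.4% of all genes did, with 0 called. Fos read 9.09, 9.34, 10.09 and 9.404 in the tumours against 7.85, 5.77 and 9.31, so that tumour 1 lay within the wild-type range and the others above it. Its difference was 1.84 ± 0.76 (limma, adjusted p = 0.54), or 0.90 without wild type 2. Ier2 was above every wild-type array, at 7.82, 8.15, 8.40 and 7.79 against 7.50, 7.402 and 7.45. The list median was 0.59, between 0.34 and 0.77 when single arrays were left out. The list means were 0.22, 0.37, 1.29 and 0.77 in tumours 1 to 4. They were -0.06, -0.50 and 0.56 in wild type, so wild type 3 lay above tumours 1 and 2.

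Type I interferon response genes had a higher mean for 16 of 18 with 0 called. Their list means were 0.20, 1.29, -0.11 and 0.48 in tumours 1 to 4, so tumour 2 was highest. Ifit1, an interferon-induced RNA-binding protein, read 8.21, 10.64, 6.49 and 7.57 against 6.77, 6.91 and 6.65. The median of 0.54 was 0.17 without tumour 2. The microsomal glutathione transferase and leukotriene genes beside Mgst2 had a higher mean in 8 of 9 cases, Mgst2 included, and their list means of 0.97, 1.37, -0.28 and -0.25 followed the order of the neutrophil list; the part of those cells in them was not tested. Mgst2 itself was above wild type in all 4 tumours.

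Other lists gave smaller shifts, with 0 called in each. Of 12 stem and progenitor genes 11 had a higher mean, with a median of 0.18, or 0.08 without tumour 2. Of 21 macrophage and red pulp genes 14 did, with a median of 0.09 that turned to -0.10 without tumour 2. Of 10 mast cell and basophil genes 9 had a higher mean, with list means of 0.54, 1.16, -0.12 and -0.35 in tumours 1 to 4. The 14 genes known from activated B cell-type lymphoma divided into 7 higher and 7 lower, and the 16 Myc and ribosome biogenesis genes into 9 higher and 7 lower.

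Small nucleolar RNA genes, which guide chemical modification of ribosomal and spliceosomal RNA, were lower on average in 74 of 78 cases, a list made by name after the values were seen. Of all genes, 48.6% had a lower mean. The limma fit called 0 of the 78, with a smallest adjusted p of 0.105. Of the 78, 57 had an unadjusted p under 0.05, where 8.30% of all genes did. Of the 78, 34 lay below every wild-type array in all 4 tumours, where 3.45% of all genes did. The median difference was -0.91, and -1.12 to -0.69 when single arrays were left out. Snora62 read 10.26, 10.30, 10.44 and 10.28 in the tumours and 13.11, 12.82 and 12.41 in wild type, a difference of -2.46 ± 0.45 (limma, adjusted p = 0.105). Snord53 differed by -2.80 ± 0.60 and Scarna2 by -0.99 ± 0.22.

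The wild-type arrays themselves differed on this list, with means of 0.51, -0.05 and -0.46 from their common mean, against -0.89, -1.29, -0.57 and -0.87 in the tumours. The pre-tumour spleens had -0.71 to -0.42, Mb1-Cre tumours -1.39 to -0.22 and Sca1-Cre tumours -0.36 to 0.21. The 15 host genes named for carrying small nucleolar RNAs had a median of -0.04, or -0.08 without tumour 2, and Snhg17 differed by -1.21 ± 0.34, or -0.71 without wild type 1. Nop56, a core protein of the box C/D particle whose introns also carry small nucleolar RNAs, read 9.92, 8.86, 9.37 and 9.28 against 11.86, 10.89 and 10.63 and differed by -1.77 ± 0.37 (limma, adjusted p = 0.153). Ncl, another nucleolar protein gene, was above every wild-type array at 0.44 ± 0.17.

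**Figure D4:**
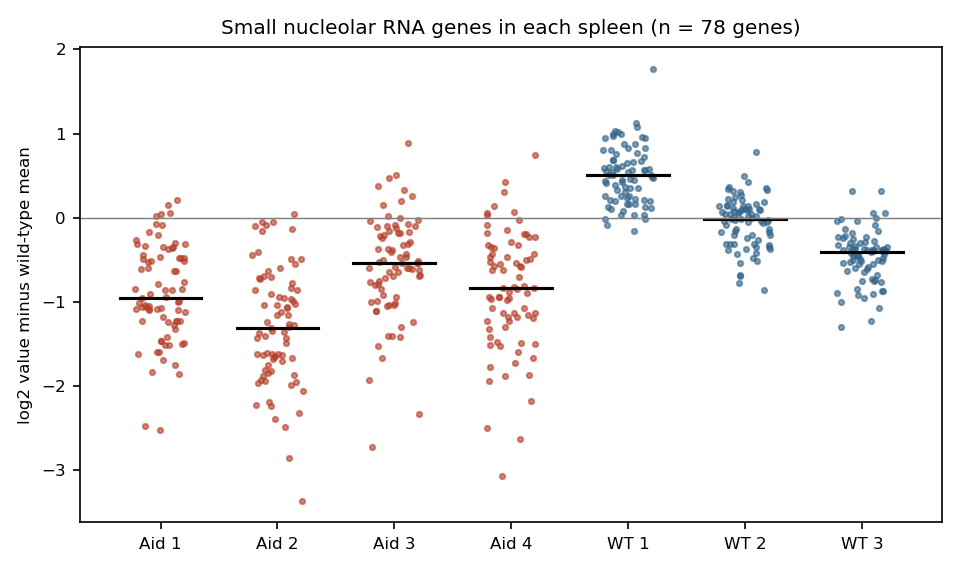
Each dot is 1 of 78 small nucleolar RNA genes on 1 array, as its log2 value minus the gene's wild-type mean; black bars are medians over genes for each array. The mean over genes runs from -1.29 in Aid-Cre tumour 2 to -0.57 in tumour 3, and from -0.46 to 0.51 in wild type.

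To see what set the Aid-Cre tumours apart from HGAL tumours of the other Cre lines, they were compared with the equally weighted mean of the Mb1-Cre and Sca1-Cre tumour groups in the same fit. The limma test called 4 of 22180 genes (0.0180%), with 1 higher (0.00451%), Mir301b, and 3 lower (0.0135%), Slc7a7, Pon3 and BC064078. With a covariate for Y-linked signal Slc7a7 stayed called (adjusted p = 0.0318), and the calls of Pon3 (0.0657), Mir301b (0.0657) and BC064078 (0.097) were lost. With only the groups compared Slc7a7 stayed called (0.0217), and Pon3 (0.122), Mir301b (0.104) and BC064078 (0.122) did not. Slc7a7 encodes a light chain of the exchanger for cationic amino acids. It read 7.02, 7.05, 7.04 and 6.80 in the Aid-Cre tumours, 7.75 to 8.11 in the 5 Mb1-Cre tumours and 7.65 to 8.24 in the 4 Sca1-Cre tumours, with a gap between Aid-Cre and the rest. The difference was -1.02 ± 0.12 (limma, adjusted p = 0.0056), and against wild type it was -0.64 ± 0.15 (limma, adjusted p = 0.23), again with no overlap. Without Aid-Cre tumour 4 the adjusted p for Slc7a7 was 0.0659.

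Pon3, a paraoxonase that hydrolyses lactones, read 6.77, 6.31, 5.80 and 6.20 in the Aid-Cre tumours against 7.31 to 7.96 in Mb1-Cre and 7.10 to 8.29 in Sca1-Cre tumours, a difference of -1.39 ± 0.20 (limma, adjusted p = 0.0162). Its wild-type values of 6.62, 6.35 and 6.58 overlapped the Aid-Cre values. BC064078 read 7.67, 7.49, 7.97 and 7.47 against 7.75 to 8.19 and 8.64 to 9.09, overlapping the Mb1-Cre tumours, with a difference of -0.79 ± 0.12 (limma, adjusted p = 0.0222). The Pon3 call was lost without Aid-Cre tumour 2 (adjusted p = 0.0916) or 4 (0.134). The BC064078 call was lost without Aid-Cre tumour 1 (0.0877), 2 (0.0916) or 4 (0.179), Mb1-Cre tumour 5 (0.0574) or Sca1-Cre tumour 2 (0.0699).

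Mir301b is a microRNA gene, and its mature 5′ arm in RefSeq (GRCm38.p6, chr16:17124456-17124477, minus strand) is shown because this was the 1 gene called higher than in the other tumours. The seed, bases 2 to 8, is in capitals.
mmu-miR-301b-5p: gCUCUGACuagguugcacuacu
The probe set for Mir301b read 6.47, 6.46, 6.14 and 6.61 in the Aid-Cre tumours, 5.57 to 5.88 in Mb1-Cre and 5.54 to 5.92 in Sca1-Cre tumours. The difference was 0.72 ± 0.10 (limma, adjusted p = 0.0162), and the wild-type spleens, at 5.86, 5.99 and 6.30, overlapped the Aid-Cre tumours. The call was lost without Aid-Cre tumour 1 (adjusted p = 0.083), 2 (0.0916) or 4 (0.134). The labels do not say whether the probe set reads the precursor or the mature RNA.

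Apobec1 and Klrb1c lay just outside the threshold in this comparison, both at a limma adjusted p of 0.0501, with differences of 1.22 ± 0.20 and 1.215 ± 0.197. The lowest Aid-Cre tumour for Apobec1 was 9.83, and the highest value was 9.77 in the 9 other tumours. Klrb1c read 5.11, 5.61, 5.30 and 5.68 in Aid-Cre tumours and at most 4.91 in the others. Of all genes, 45 (0.203% of those tested) were higher and 37 (0.167%) lower in every Aid-Cre tumour than in all 9 other tumours. The genes called against wild type did not pass here: Prelid2 differed by -0.45 ± 0.14 from the other tumours (limma, adjusted p = 0.34).

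**Figure D5:**
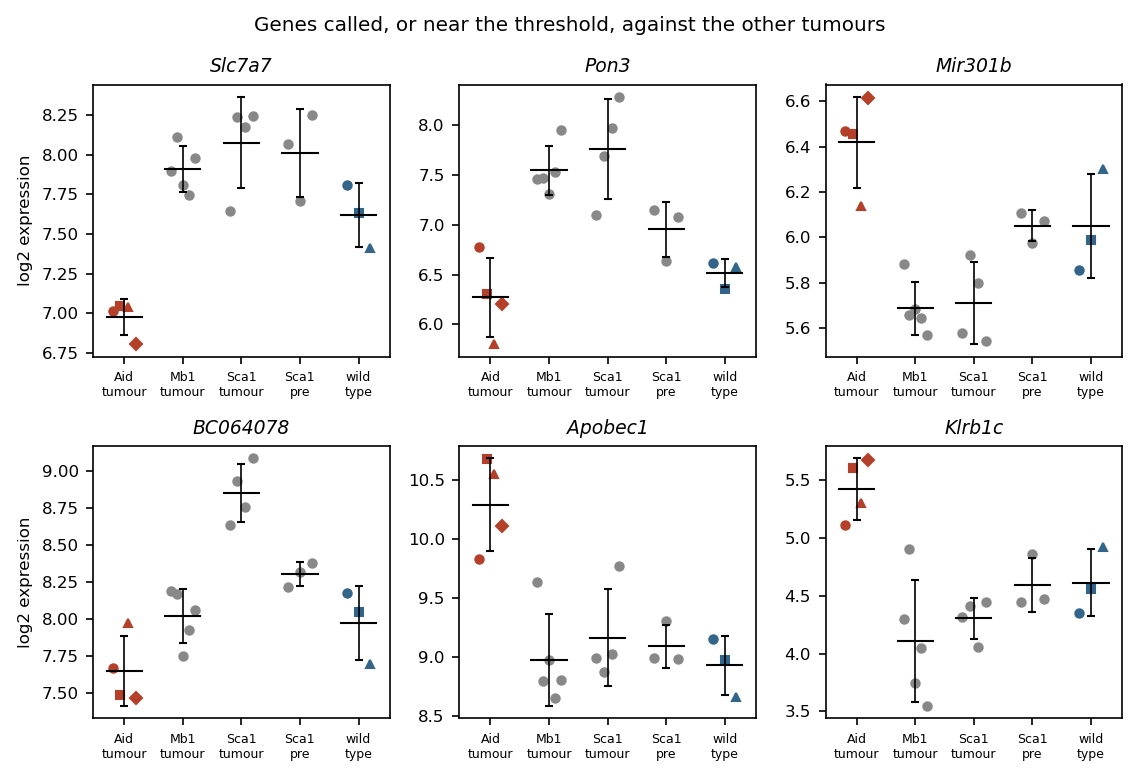
Log2 expression of the 4 genes called against the other tumours, and of Apobec1 and Klrb1c, on every array by group (Aid-Cre n = 4, Mb1-Cre n = 5, Sca1-Cre n = 4, before tumours n = 3, wild type n = 3); bars are means, error bars SD, and axes do not start at 0. Slc7a7 is at most 7.05 in the Aid-Cre tumours and at least 7.65 in the other tumours.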

How the data were processed

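The deposited table holds log2 expression of 41345 probe sets on 19 arrays, made by the authors with RMA in the oligo package, per the submitters' processing notes; no version or genome build is stated there. All arrays in the table were used, and their medians lay between 5.23 and 5.40. Probe sets were named through the platform annotation: 23521 had 1 gene symbol, 1814 several and 16010 none, and 23328 matched a RefSeq gene by gene ID. For the 1082 genes with several probe sets, the one with the highest mean over all arrays was used, leaving 22180 genes. Groups came from the array titles. limma 3.58.1 (R 4.3.3; lmFit and eBayes, 14 residual degrees of freedom, two-sided, Benjamini-Hochberg over all genes, threshold 0.05) tested group means without covariates, after a check on simulated data. A level under 4.90 (the highest 40th percentile among the arrays), on a single array or as a group mean, is called dim. Array values have no detection calls, so precision rests on the number of arrays. No source says how animals were matched. Each p-value sets a difference of group means against a residual spread between spleens that is shared by all 5 groups.

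Named genes were the driver and adaptor genes, all called genes, up to 10 genes a direction by p and by size among those with no overlap, the 10 with the largest SD over Aid-Cre arrays, and up to 6 members of a described list, and up to 5 genes a direction against the other tumours; predicted genes, uncalled small RNAs, receptor segments and sex-linked genes were left out of the ranked parts. The comparison, members and lists were chosen with earlier results of these data known. Gene lists have counts and medians only, with no test. Alternatives covered normalization, filters, probe set choice, arrays in the fit, variance model, array weights, a replicate block, a covariate for Y-linked signal and single arrays left out.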

Additional observations from a re-analysis of the deposited data

Results flagged for a closer look

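Within the 4 Aid-Cre tumours, 3 of the genes described had 1 array far from the other 3. The measure was the gap to the nearest array divided by the whole range. It was past Dixon's limit for 4 arrays, which chance passes in about 1 in 20 groups. The screen covered many genes, so at that rate some would pass by chance alone. The ratio was 0.93 for C1ra, a complement protease subunit, which read 5.12 in tumour 1 and 5.46 to 5.48 in the others. It was 0.861 for Ipw, an imprinted RNA gene, which read 3.69 in tumour 3 and 3.81 to 3.83 in the others, and 0.878 for Slc7a7, at 6.80 in tumour 4.

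The 4 genes called between the Aid-Cre tumours and the HGAL tumours of the other Cre lines by the limma contrast had differences of -1.02 for Slc7a7, -1.39 for Pon3, -0.79 for BC064078 and 0.72 for Mir301b.

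Among probe sets outside the gene table, 22 without a single gene symbol passed the threshold against wild type when all 41345 probe sets were tested. Of these, 17 were higher and 5 lower, with differences from -2.63 to 3.05, and the smallest in size was -0.52; they are not named here.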

How the results depend on the processing

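Against wild type the count of 4 called genes was within 1.5 times under quantile normalization, cyclic loess, median centring, both filters on dim genes, the mean of probe sets and the trend and robust variance model. It was 1 with only these 7 arrays (Snora62, none of the 4), 41 with array weights (all 4 among them), 0 with the covariate for Y-linked signal (1077 at an unadjusted p under 0.05), 1 without both arrays with pancreatic transcripts, 32 when every probe set was tested, and 0 to 3 when single arrays were left out (0 without Aid-Cre tumour 2 or 3, with 1445 and 2655 at an unadjusted p under 0.05). Against the other tumours the 4 calls became 7 with quantile normalization, 10 with median centring, 1 with only the groups compared, 2 with array weights, 1 with the covariate for Y-linked signal, 2 without both arrays with pancreatic transcripts, and 0 to 18 when single arrays were left out, with 0 without Aid-Cre tumour 4 (1351 at an unadjusted p under 0.05) and 18 without tumour 3; leaving out each Mb1-Cre and Sca1-Cre array was chosen after seeing the data. The cause of these moves was not tested. With the replicate number as a block, 0 genes were called in either comparison (smallest adjusted p 0.112 and 0.156, with 1524 and 1601 at an unadjusted p under 0.05). No source says that the numbers are a pairing. Same-numbered tumour and wild-type arrays deviated from their group means with correlations of -0.033, -0.398 and -0.519. Differently numbered ones ran from -0.403 to 0.481, so these values cannot tell whether the numbers pair animals. Of genes not called, Gcsam changed sign under the covariate for Y-linked signal (0.48), as did Fasl (-0.18). Syk ran from -0.53 to 0.083 (without Aid-Cre tumour 2) when single arrays were left out, Mki67 from -0.53 to 0.33 (without tumour 3), Elane from -0.82 (without tumour 2) to 0.76, and Camp from -0.93 to 0.95 (without tumour 3). Elane, at 0.07, was -0.089 under that covariate, and Camp, at -0.03, was 1.12 with array weights, 0.25 with the block and 0.17 without both pancreatic arrays. Among genes with an unadjusted p under 0.05, 47.6% were higher in the tumours as deposited and 36.4% after median centring, with 45.4% and 43.6% under quantile normalization and cyclic loess. A second probe set of Med24, not used for the gene, was among the 32 at -1.11, while the one used differed by 0.13.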
